A study of Homo sapiens with 10 samples.

Results

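P-TEFb is the kinase that releases paused RNA polymerase II into productive elongation, and the 10 genes described here encode its subunits, the protein partners that hold it inactive and the scaffold complex that delivers it. They were taken by gene symbol: HEXIM1, HEXIM2, LARP7 and MEPCE of the 7SK particle, CDK9, CCNT1 and CCNT2 of P-TEFb itself, and AFF1, AFF4 and ELL2 of the super elongation complex. All 10 matched a row of the deposited tables, which hold 59204 human genes. Of these, 8 reached a mean of 20 total reads per library, the minimum for a test, and HEXIM2 and CDK9 did not.

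K562 cells, an established human chronic myeloid leukaemia line, took up 30 µM 4-thiouridine for 12 h, with fresh label every 3 h. They were then chased with 3 mM uridine together with DMSO, 1 µM JQ1 or 1 µM AZ-5576, and sampled at 2, 4 and 8 h. All 3 arms share 1 library taken at 0 h, before the chase, so that every library comes from cells that carried the label. JQ1 is a BET bromodomain inhibitor and AZ-5576 inhibits CDK9, so the chase follows old and new RNA under each inhibitor.

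In cells, a large pool of P-TEFb (CDK9 with cyclin T1 or T2) is kept inactive on the 7SK small nuclear RNA. HEXIM1 or HEXIM2 is the inhibitor that contacts the kinase there, LARP7 binds the end of the 7SK RNA, and MEPCE caps it. Released P-TEFb can act within the super elongation complex, in which AFF1 or AFF4 is the scaffold and ELL2 raises the rate of the polymerase. HEXIM1 transcript is widely used as a marker of response to BET inhibitors.

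There was 1 library for each condition, so p-values here measure the scatter of the libraries about a time course, not the spread between cultures. The 10 libraries held 10293371 to 16008906 human reads, of which 2031796 to 3868420 were labelled, and 1208073 to 2366155 fly reads. Levels are given as reads per 1000000 fly reads, called the fly-scaled level, and each count comes from transcript 3′ ends, so that levels were not divided by length and are not ranked between genes. The amount of fly RNA followed the mass of RNA, so the fly-scaled level is relative to that mass. A change in cell number, or in all RNA of each cell alike, would not show in it. Over 2069 well-covered fly genes, the 0 h library and the AZ-5576 2 h library stood apart, with a median correlation of 0.955 and 0.921 with the other libraries against 0.972 to 0.986 for the rest. Of the markers of the line, the fetal globin gene HBG1 had 59843 to 96862 reads in each library. The T cell gene CD3E had 0 to 8 and the B cell gene MS4A1 had 0 to 2, whereas the epithelial gene EPCAM had 374 to 902.

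HEXIM1 and MEPCE are shown by their upstream sequence. Of the tested members, these 7SK particle genes had the least total RNA left after 8 h of AZ-5576, and they differed in JQ1. The 250 bases before the RefSeq start (GRCh38.p14) lie at chr17:45148225-45148474 on the plus strand for HEXIM1 and at chr7:100428540-100428789 on the plus strand for MEPCE, whose first of 3 listed starts is used. Capitals mark matches on either strand to 1 of 4 motifs. The letters TATAAA stand for the core box near many starts, and CCAAT for the box bound by the factor NF-Y. The letters GGGCGG stand for the GC box of the Sp1 family, and CACGTG for the E box bound by MYC and USF.
HEXIM1: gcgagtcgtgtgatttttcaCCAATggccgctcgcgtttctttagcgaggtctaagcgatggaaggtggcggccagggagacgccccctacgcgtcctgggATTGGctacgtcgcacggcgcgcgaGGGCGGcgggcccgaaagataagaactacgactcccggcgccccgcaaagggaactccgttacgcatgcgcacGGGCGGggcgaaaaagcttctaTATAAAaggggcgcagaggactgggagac
MEPCE: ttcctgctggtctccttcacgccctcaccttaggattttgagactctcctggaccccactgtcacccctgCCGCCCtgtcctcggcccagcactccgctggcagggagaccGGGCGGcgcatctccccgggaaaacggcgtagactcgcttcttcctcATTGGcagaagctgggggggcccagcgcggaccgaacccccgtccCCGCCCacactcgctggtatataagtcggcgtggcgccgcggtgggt
The HEXIM1 window holds TATAAA with its first base at position -29, counted from the start, besides 2 matches to CCAAT and 2 to GGGCGG. The MEPCE window has 1 match to CCAAT and 3 to GGGCGG, and none to the exact letters TATAAA. It does hold the similar letters tatataag close to the start, which this search does not count. Of 35116 RefSeq promoter windows of the same length, 10.7% hold TATAAA and 32.0% hold CCAAT, while 42.6% hold GGGCGG and 6.35% hold CACGTG. Windows were listed for 9 members, 15 in all, and HEXIM1 was the single one with the exact letters TATAAA. Variants of this box were not searched, so the windows are not sorted into those with and without it. A match to CACGTG was found in the first CCNT1 window, the second MEPCE window and the AFF4 window. These matches are letters in a window and not measured binding sites.

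HEXIM1, the P-TEFb inhibitor, went in opposite directions under the inhibitors. The fly-scaled level of its total RNA stood at 312 at 0 h and at 372, 460 and 567 after 2, 4 and 8 h of DMSO. With JQ1 it reached 596, 1382 and 2250, and with AZ-5576 it was 197, 92.0 and 35.1. Every JQ1 value lay above and every AZ-5576 value below every DMSO value. At 8 h it was at 397% of DMSO in JQ1 (95% interval 370 to 426%) and at 6.19% in AZ-5576 (4.88 to 7.74%), where the median gene was at 80.6% and 32.2%. These intervals, and all intervals on reads below, are exact and cover counting error only, since the reads carry no molecular identifiers in the sources used here.

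MEPCE, the 7SK capping enzyme, had the lowest share of DMSO left in AZ-5576 at 8 h among the 8 tested members. Its fly-scaled level was 636 at 0 h, and 705, 599 and 679 in DMSO. The JQ1 values of 510, 552 and 739 overlapped these, while AZ-5576 gave 404, 133 and 31.3. The 8 h value in AZ-5576 was 4.61% of DMSO (3.59 to 5.83%), and its interval overlapped that of HEXIM1.

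LARP7, which stabilises 7SK, was the tested member with the most RNA left at 8 h of AZ-5576 and the least at 8 h of JQ1, relative to DMSO. Its fly-scaled level began at 866 and was 1023, 966 and 952 with DMSO, 747, 657 and 582 with JQ1, and 909, 642 and 414 with AZ-5576, so that both inhibitor arms lay below all DMSO values. At 8 h this was 61.2% of DMSO in JQ1 (56.6 to 66.2%) and 43.5% in AZ-5576 (40.2 to 47.1%).

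HEXIM2, the paralogue of HEXIM1, was barely read. It had 16 reads at 0 h. DMSO gave 12, 8 and 2 reads at the later times, JQ1 gave 4, 2 and 1, and AZ-5576 gave 8, 0 and 0. At 4 h JQ1 was at 18.8% of DMSO (1.94 to 94.0%), and the 0 reads in AZ-5576 allow up to 54.6%. At 8 h the intervals reached well above DMSO in both arms. The 7SK RNA itself is not polyadenylated. The identifier ENSG00000202198, which the names table gives as 7SK, had 14 to 63 reads and is not used further.

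Of P-TEFb, the kinase gene CDK9 was also near the floor. It had 9 reads at 0 h. DMSO gave 12, 9 and 24 reads, JQ1 gave 16, 16 and 28, and AZ-5576 gave 10, 7 and 1. The 8 h count in AZ-5576 was 3.10% of DMSO, with an interval from 0.0755 to 19.0%, and the other AZ-5576 intervals included equality with DMSO.

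The cyclin genes CCNT1 and CCNT2 were close to each other in their share of DMSO. The CCNT1 level began at 656 and was 791, 728 and 526 with DMSO, 506, 607 and 588 with JQ1, and 543, 329 and 164 with AZ-5576. The CCNT2 level began at 140 and was 209, 200 and 171 with DMSO, 146, 193 and 238 with JQ1, and 121, 100 and 48.6 with AZ-5576. The JQ1 values of both overlapped DMSO: at 2 h they were below it, at 64.0% (58.2 to 70.3%) for CCNT1 and 69.7% (58.1 to 83.6%) for CCNT2. By 8 h they were above it, at 112% (102 to 122%) and 140% (120 to 162%). In AZ-5576 at 8 h, 31.3% (27.7 to 35.2%) and 28.5% (22.8 to 35.4%) of DMSO was left, near the 32.2% of the median gene.

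Among the super elongation complex genes, the scaffolds AFF1 and AFF4 differed in their share of DMSO. The AFF1 level began at 73.7 and was 147, 179 and 344 with DMSO and 142, 173 and 305 with JQ1, against 62.4, 69.5 and 27.1 with AZ-5576. AFF4 began at 125 and had levels of 204, 260 and 232 with DMSO, 178, 192 and 338 with JQ1, and 140, 98.8 and 62.1 with AZ-5576. At 8 h of AZ-5576, 7.86% of DMSO was left for AFF1 (5.97 to 10.2%) and 26.8% for AFF4 (22.0 to 32.4%), and these intervals do not overlap. By 8 h of DMSO itself, AFF1 had risen to 467% of 0 h and AFF4 to 185.5%. Relative to 0 h, AZ-5576 left 36.72% for AFF1 (26.54 to 50.45%) and 49.69% for AFF4 (39.74 to 62.04%), and these intervals overlap. ELL2, the elongation factor, began at 116 and had levels of 207, 224 and 247 with DMSO, 188, 209 and 415 with JQ1, and 187, 141 and 79.0 with AZ-5576. Its AZ-5576 level at 2 h was 90.2% of DMSO (75.4 to 108%), the one of 24 member values in AZ-5576 whose interval reached DMSO, and 32.0% (26.8 to 38.1%) was left at 8 h.

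**Figure D1:**
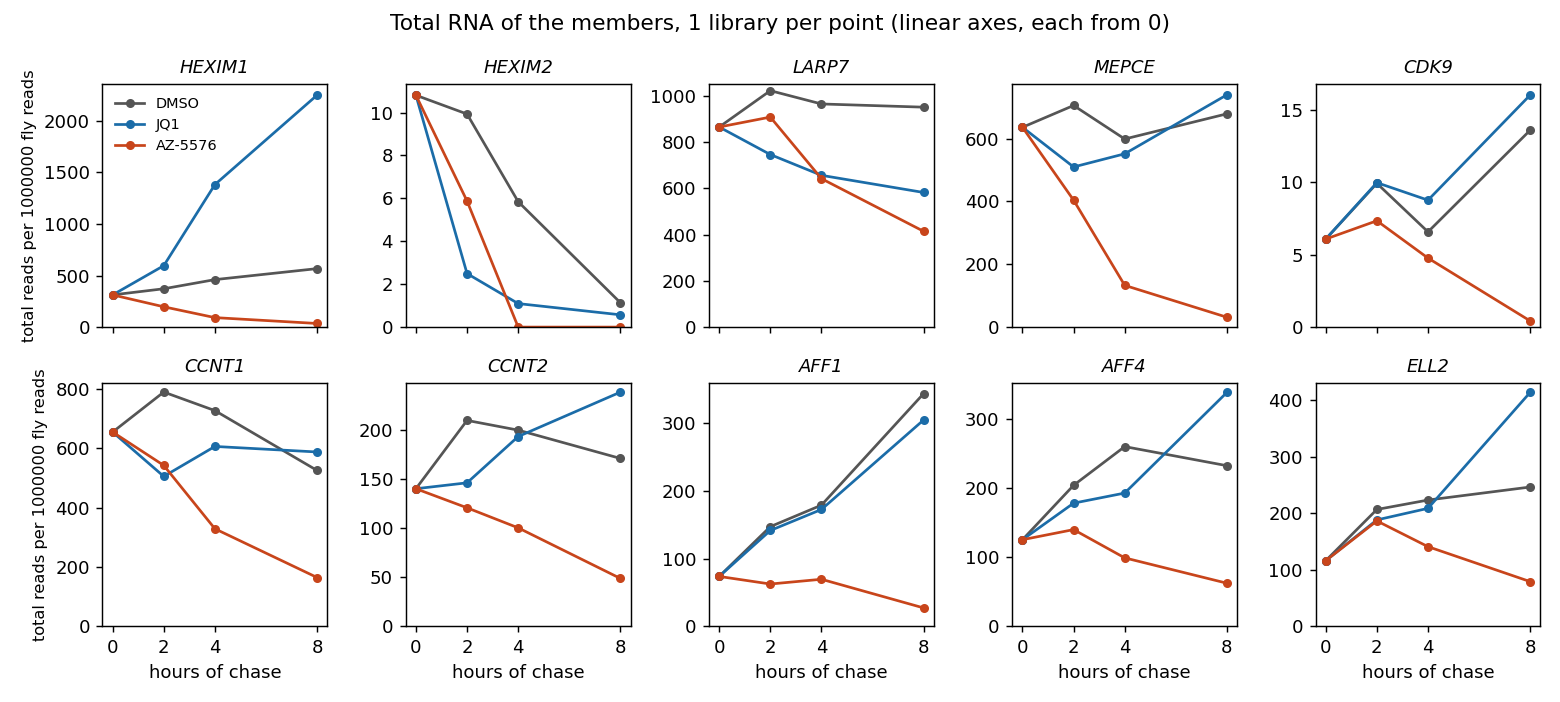
Total reads per 1000000 fly reads (linear vertical axes, each from 0) against hours of chase for the 10 members, with 1 library per point and the 0 h library shared by DMSO (grey), JQ1 (blue) and AZ-5576 (orange). HEXIM1 reached 2250 in JQ1 against 567 in DMSO at 8 h, and MEPCE ended at 31.3 in AZ-5576 against 679 in DMSO.

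The mean difference over 2, 4 and 8 h was tested with edgeR's quasi-likelihood test, time as a factor and Benjamini-Hochberg adjustment over 11797 genes. In this model, also used for unlabelled RNA below, a difference that grows over the hours counts as scatter. A missing call is therefore not a sign of no change. None of the 8 members passed 0.05 between AZ-5576 and DMSO, where 2.47% of all genes did, and all 8 had negative estimates. The estimates for AFF1 (log2 difference -1.95, SE 0.52, adjusted p = 0.0550), HEXIM1 (-2.10, SE 0.65, adjusted p = 0.0592) and MEPCE (-2.11, SE 0.66, adjusted p = 0.0598) lay just outside. The other 5 lay between -1.21 and -0.64, and the members' median was -1.18 against -0.82 over all genes. Without the AZ-5576 2 h library all 8 were called, but so were 58% of all genes. Without the 8 h library of that arm 3 were called beside 14.3% of genes, and without the DMSO 2 h library 2 beside 12.6%. DESeq2 called 6 of the 8 and 35.5% of genes.

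JQ1 against DMSO gave no call in this test, for the members or for any of the 11797 genes (0%), although 1081 genes had an unadjusted p under 0.05 and DESeq2 called 71 genes, no member among them. HEXIM1 had the highest estimate of the members, 1.58 (SE 0.61, adjusted p = 0.533), above 99.4% of all genes. It passed when the 2 arms were fitted alone (adjusted p = 0.00577) or with no count minimum (adjusted p = 0.00343), and over the other settings its adjusted p was not below 0.05. LARP7 was at -0.58 (SE 0.27, adjusted p = 0.538), and passed with the 2 arms alone (adjusted p = 0.0155). The members' median was -0.03 against -0.31 over all genes. With TMM scaling these were 0.26 and 0.01, and CCNT1 turned from -0.20 to 0.07, MEPCE from -0.08 to 0.21 and AFF1 from -0.11 to 0.21, none of them called.

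Set directly against each other, the inhibitors differed in HEXIM1. It was lower in AZ-5576 than in JQ1 by a log2 difference of -3.68 (SE 0.70, edgeR adjusted p = 0.0397), and it was the single member called, where 1.19% of all genes were called and 1.17% were called lower. The call was lost without the JQ1 4 h library (-3.62, adjusted p = 0.173), without the AZ-5576 4 h library (-3.54, adjusted p = 0.290), with the 2 arms alone (-3.83, adjusted p = 0.110) and with a mean count of at least 100 (-3.68, adjusted p = 0.0619). Without the AZ-5576 2 h library 7 members were called, 1 of them HEXIM1 (-4.69, adjusted p = 3.30e-05), together with 31.8% of all genes.

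A line through each arm from the shared 0 h library asks whether the courses part over time. All 8 members fell over the hours of AZ-5576, from -0.53 log2 per hour for MEPCE to -0.10 for ELL2, as 8169 of 11797 genes were called to do. All 8 had a lower slope in AZ-5576 than in DMSO. Of all genes, 73.8% differed in slope and 73.3% had the lower slope, so that this count is close to that of the transcriptome. The differences in log2 slope per hour were -0.54 for MEPCE (SE 0.04), -0.52 for HEXIM1 (SE 0.04) and -0.44 for AFF1 (SE 0.05), with edgeR adjusted p of 3.64e-09, 4.06e-09 and 6.66e-08. Of all genes, 2.82%, 3.44% and 6.76% had a lower value than these. AFF4 (-0.26), CCNT2 (-0.24), CCNT1 (-0.23) and ELL2 (-0.19) were nearer to the all-gene median of -0.19, and LARP7 was above it at -0.15. Where libraries were scaled by TMM, which sets the median change near 0 (-0.02), 4 members were called lower: MEPCE (-0.37), HEXIM1 (-0.34), AFF1 (-0.27) and AFF4 (-0.09), where 27.6% of all genes were lower and 20.6% higher. CCNT2, CCNT1 and ELL2 were then at -0.07, -0.05 and -0.02, and LARP7 turned to 0.03, none of them called. LARP7 and ELL2 also lost the call on the fly scale without the AZ-5576 8 h library.

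In the same fit, JQ1 changed the slope of 2 members against DMSO, where 18% of all genes differed. HEXIM1 rose faster, by 0.29 log2 per hour (SE 0.04, adjusted p = 2.83e-05), in the direction taken by 1.79% of genes. LARP7 fell relative to DMSO, at -0.10 (SE 0.03, adjusted p = 0.0186), as 16.2% of genes did. HEXIM1 was called in each setting run. LARP7 lost its call without the DMSO 8 h library (-0.12), without the JQ1 4 h (-0.10) or 8 h library (-0.15), and with TMM scaling (-0.05, adjusted p = 0.0510). The other 6 members lay between -0.02 and 0.07 on the fly scale, with none called. With TMM scaling ELL2 joined HEXIM1 among the calls (0.12, adjusted p = 0.0277), and the sign of CCNT1, MEPCE and AFF1 turned from slightly negative to 0.04, 0.05 and 0.03.

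Labelled reads come from RNA that took up 4-thiouridine, during the pulse or from label still in use after the wash. They hold only part of the RNA present at the start, since the median gene was 51.5% labelled at 0 h. At 0 h the labelled share was 72.5% for HEXIM1 (68.2 to 76.5%), higher than in 88.9% of genes, and 33.5% for MEPCE (30.5 to 36.6%), below the median gene. The other 6 lay between 54.6% for LARP7 and 70.3% for ELL2. The last 250 bases of the MEPCE transcript in GENCODE release 29 are 24.0% T, against 40.8% for LARP7, 30.0% for HEXIM1 and a median of 31.2% over 9783 tested coding genes. A label can be read only at a T, and the part of this composition in the shares was not tested.

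By 8 h of DMSO the shares had dropped to 5.00% for HEXIM1 (3.73 to 6.54%) and 1.17% for MEPCE (0.641 to 1.96%), with 14.5% left for both LARP7 and ELL2. At 8 h of AZ-5576 the shares were higher than in DMSO, as for the median gene (40.7% against 9.13%). HEXIM1 was at 66.3% (55.0 to 76.3%) and ELL2 at 52.4% (45.0 to 59.7%). LARP7 was at 50.3% (47.1 to 53.5%) and MEPCE at 46.0% (34.3 to 57.9%). CCNT1 was at 46.5%, CCNT2 at 41.7% and AFF4 at 28.6%, down from 62.4%, 63.3% and 66.5% at 0 h. AFF1 had the lowest share, 21.9% (12.5 to 34.0%), down from 57.8% at 0 h. For HEXIM1 and MEPCE, labelled and unlabelled reads both shrank, down to 55 and 34 labelled reads at 8 h. The interval of each share at 8 h overlapped that at 0 h.

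**Figure D2:**
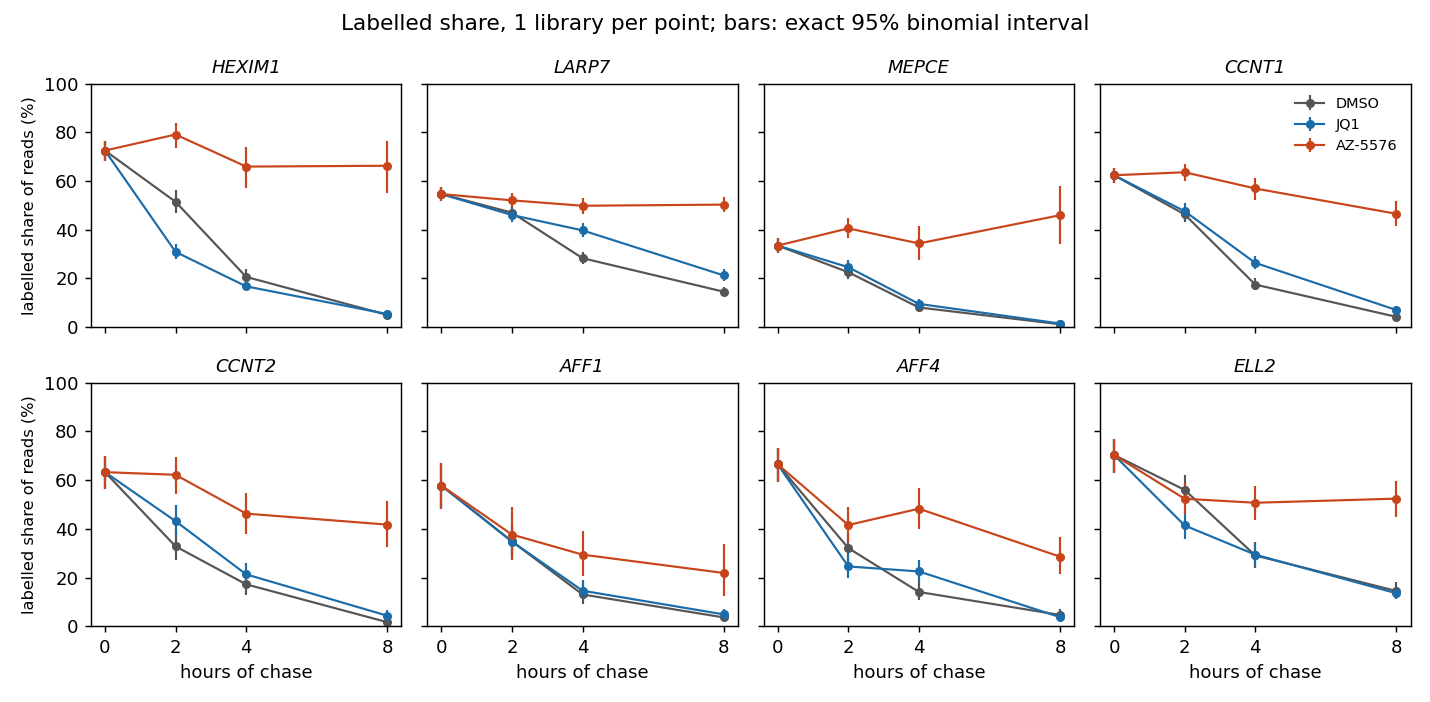
Labelled share of each member's reads (percent) against hours of chase for the 8 tested members, 1 library per point, with exact 95% binomial intervals as bars and the 0 h library shared by DMSO (grey), JQ1 (blue) and AZ-5576 (orange). The HEXIM1 share was 5.00% in DMSO and 66.3% in AZ-5576 at 8 h, and its JQ1 share at 2 h (30.9%) lay below that of DMSO (51.5%).

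The decline of labelled reads per fly read gave a half-life for each arm. In DMSO it was 1.62 h for MEPCE (95% interval 1.37 to 1.98 h), 1.81 h for CCNT2 (1.46 to 2.38 h) and 1.86 h for CCNT1 (1.60 to 2.25 h), which overlap. Of 8817 genes, 1.30% had a shorter half-life than MEPCE, 2.71% than CCNT2 and 3.39% than CCNT1. HEXIM1 (2.60 h) and AFF4 (2.76 h) followed, again with overlapping intervals, and AFF1 (3.91 h), LARP7 (4.17 h) and ELL2 (5.67 h) surrounded the all-gene median of 4.49 h. These half-lives include dilution by growth, and any label used after the wash would add labelled reads. At 2 h of DMSO the labelled level of the median gene was 106.5% of 0 h, and 60.6% of genes were above 0 h. ELL2 was then at 142% (110 to 182%), so a line from 0 h does not follow its early course. With TMM scaling, which removes the common decline, they became 2.44 h for MEPCE, 2.94 h for CCNT2, 3.13 h for CCNT1, 5.75 h for HEXIM1, 6.45 h for AFF4, 21.4 h for AFF1 and 36.0 h for LARP7, with no decline for ELL2 and an all-gene median of 87.1 h. The order of the 8 was the same on both scales. A change of library scale shifts all slopes of an arm almost alike, so this is no separate check of the order. The absolute values rest on the fly scale.

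Labelled cyclin RNA declined more slowly in AZ-5576 than in DMSO. The slope was higher by 0.18 log2 per hour for CCNT1 (SE 0.04, edgeR adjusted p = 0.00288) and by 0.23 for CCNT2 (SE 0.07, adjusted p = 0.0204), and the half-lives were 2.81 h and 3.09 h. These were 2 of 8 members, where 4.75% of 8817 genes differed and 3.53% were higher. At 8 h CCNT1 had 181 labelled reads in AZ-5576 and 39 in DMSO, and CCNT2 48 and 5, which is 346% of DMSO per fly read (244 to 502%) for CCNT1. TMM scaling left both calls (0.14 and 0.19). Both were lost without the DMSO 8 h library (0.09 for each gene) and without the AZ-5576 8 h library (0.17 and 0.21), so they rest on the last time point. For MEPCE (0.07), LARP7 (0.07), AFF4 (0.08) and ELL2 (0.02) the estimates were small and not called, those of HEXIM1 (-0.07) and AFF1 (-0.14) were below 0, and ELL2 turned to -0.02 with TMM.

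Labelled HEXIM1 RNA did not decline steadily in JQ1. Its fly-scaled labelled level was 226 at 0 h and 191, 95.0 and 28.4 in DMSO, whereas JQ1 gave 184, 231 and 121 and AZ-5576 156, 60.6 and 23.2. At 4 h of JQ1 it stood at 102% of its 0 h level (88.3 to 118%), when the median gene was at 65.3% and 9.14% of genes were above 0 h. Its slope in JQ1 was higher than in DMSO by 0.26 log2 per hour (SE 0.04, edgeR adjusted p = 9.72e-06) and was the single member's call, where 0.669% of genes differed and 0.318% were higher. The call was lost without the DMSO 8 h library (0.20, adjusted p = 0.578). AZ-5576 against JQ1 gave -0.33 (SE 0.04, adjusted p = 1.50e-10), where 5.56% of genes differed and 1.03% were lower. A line describes this course poorly, and its nominal half-life of 7.86 h in JQ1 (4.85 to 20.8 h) is not read as a decay time.

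**Figure D3:**
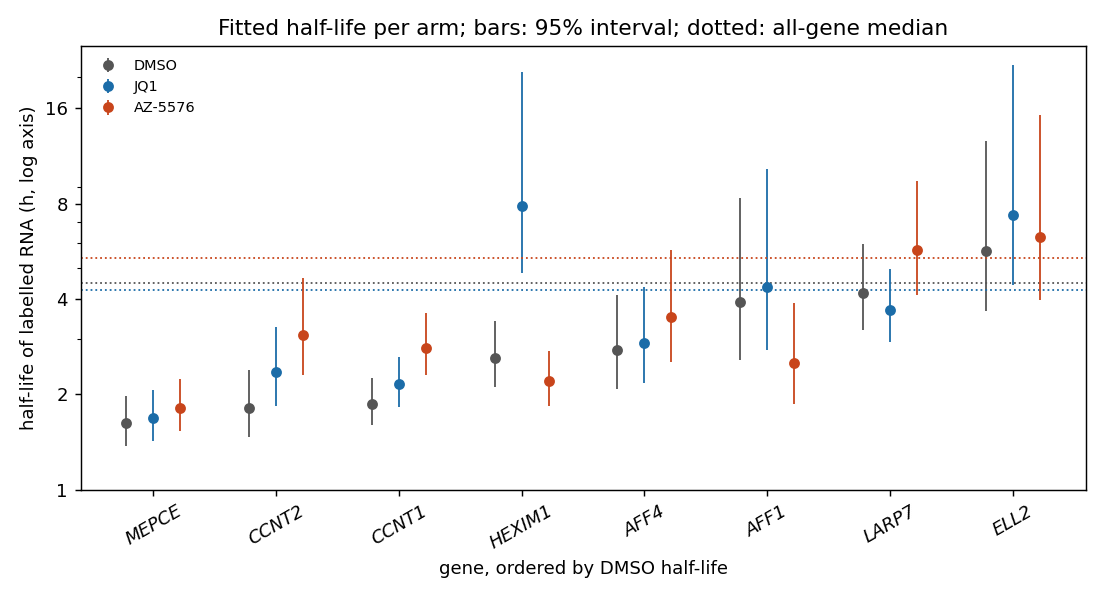
Fitted half-life of labelled RNA (hours, log axis) of the 8 tested members in DMSO (grey), JQ1 (blue) and AZ-5576 (orange), with 95% intervals as bars and the all-gene median of each arm as a dotted line. MEPCE, CCNT2 and CCNT1 were the shortest in DMSO, and HEXIM1 in JQ1 (7.86 h) stood above its DMSO value (2.60 h).

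Unlabelled reads, the total minus the labelled, hold RNA made during the chase together with older or unmarked RNA. The fly-scaled unlabelled level of HEXIM1 was 85.8 at 0 h and 180, 365 and 539 in DMSO. In JQ1 these values were 412, 1151 and 2129, and AZ-5576 left 41.1, 31.3 and 11.8. JQ1 was thus at 228% of DMSO at 2 h (195 to 267%), 315% at 4 h (286 to 348%) and 395% at 8 h (368 to 425%). AZ-5576 was at 22.8% at 2 h (16.7 to 30.7%), 8.57% at 4 h (6.20 to 11.6%) and 2.20% at 8 h (1.45 to 3.19%). At 2 h, the median gene was at 77.2% in JQ1 and 74.7% in AZ-5576.

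As a share of DMSO, unlabelled RNA at 2 h of AZ-5576 was unequal among the members. HEXIM1 (22.8%) and CCNT2 (32.4%) had the lowest shares, and AFF1 (40.6%), MEPCE (44.0%) and CCNT1 (46.5%) came next. AFF4 (59.0%), LARP7 (80.3%) and ELL2 (97.6%, interval 74.8 to 128%) had the highest. Relative to 0 h, ELL2 (258%) and AFF4 (195%) had risen, and HEXIM1 (47.9%), MEPCE (56.8%) and CCNT1 (80.1%) had fallen. The intervals of AFF1, LARP7 and CCNT2 (88.7%, 62.4 to 126%) included the 0 h level. By 8 h MEPCE was at 2.52% of DMSO (1.79 to 3.45%), level with HEXIM1 within their intervals. AFF1 was then at 6.37% of DMSO (4.67 to 8.51%), and the other 5 lay between 16.9% for CCNT2 and 25.3% for LARP7, around the 19.5% of the median gene. Relative to 0 h, the 8 h values were 4.00% for MEPCE (2.83 to 5.50%), 13.8% for HEXIM1 (8.81 to 20.9%) and 68.0% for AFF1 (44.6 to 104%).

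Of the 8 members, 7 passed the edgeR test on unlabelled RNA as lower in AZ-5576, where 41.1% of 11066 genes differed and 40.8% were lower. HEXIM1 was at -3.43 (SE 0.68, adjusted p = 0.0146), lower than all but 1.76% of genes, and MEPCE at -2.60 (SE 0.74, adjusted p = 0.0255). AFF1 (-2.16), CCNT2 (-1.87), CCNT1 (-1.83), AFF4 (-1.68) and LARP7 (-1.11, adjusted p = 0.0467) followed, and ELL2 (-1.08, adjusted p = 0.138) was not called. With TMM scaling 4 were called lower, namely HEXIM1 (-2.41), MEPCE (-1.61), AFF1 (-1.07) and CCNT1 (-0.69), where 14.8% of all genes were, while LARP7 turned to 0.08. No member was called without the DMSO 4 h library, the DMSO 8 h library or the AZ-5576 4 h library, although the HEXIM1 estimate was then -3.38, -3.23 and -3.36. JQ1 gave no call on unlabelled RNA (0% of 11066 genes, 856 with an unadjusted p under 0.05), with HEXIM1 at 1.70 (SE 0.60, adjusted p = 0.601).

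**Figure D4:**
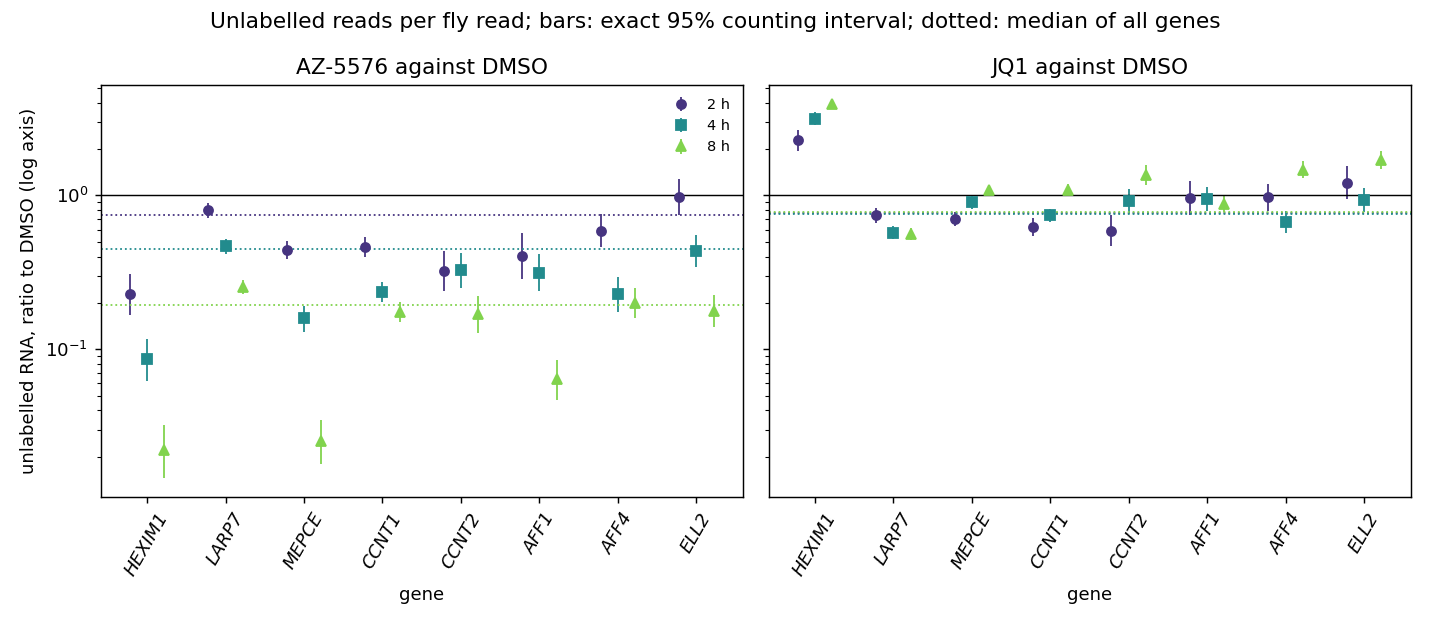
Unlabelled reads per fly read as a ratio to DMSO (log axis) at 2, 4 and 8 h for the 8 tested members, AZ-5576 on the left and JQ1 on the right, with exact 95% counting intervals as bars and the all-gene median of each time as a dotted line. HEXIM1 lay at 2.20% of DMSO in AZ-5576 and at 395% in JQ1 at 8 h.

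The members differ in gene structure. HEXIM1 (ENSG00000186834) has 1 exon and spans 3600 bases at chr17:45148502-45152101 (GRCh38, GENCODE release 29), where 2.06% of tested coding genes have 1 exon. MEPCE spans 5337 bases at chr7:100428790-100434126, and AFF1 spans 206053 bases at chr4:86935002-87141054, longer than 95.0% of tested genes. Of the cyclin genes, CCNT1 lies at chr12:48688458-48716998 on the minus strand and CCNT2 at chr2:134918235-134959342 on the plus strand. LARP7 lies at chr4:112636964-112657592 on the plus strand. A gene on the opposite strand overlaps 8 of the 10 members, all but CCNT1 and CDK9, among them AC138150.1 at HEXIM1, ZGRF1 at LARP7, ZCWPW1 at MEPCE and CCNT2-AS1 at CCNT2. No source used here states whether the counting used strand. Annotated pseudogene copies of CCNT2, LARP7 and ELL2 had at most 4 reads in any library. Of the tested members, HEXIM1, MEPCE and AFF1 had the least total RNA relative to DMSO at 8 h of AZ-5576. Any link of this to gene length was not tested. Relative to 0 h, AFF1 was at 36.72% (26.54 to 50.45%), CCNT2 at 34.74% (27.42 to 43.85%) and CCNT1 at 25.08% (22.24 to 28.24%). These intervals overlap. The 3′ UTRs of CCNT1, CCNT2, AFF1, AFF4 and ELL2 hold 13 to 20 copies of ATTTA, the core of AU-rich elements that many unstable transcripts carry, against a median of 2. HEXIM1 has 7, LARP7 has 1 and MEPCE has none. Any link of these copies to the half-lives was not tested.

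Over the 10 libraries, the log2 levels of the members were correlated to different degrees, from r = 0.32 for LARP7 with HEXIM1 to r = 0.96 for MEPCE with CCNT1. These points share arms and scaling, and the values describe likeness of course alone. Among 8202 well-covered genes, those most like HEXIM1 were TENT5C and FAM53C (r = 0.99 each) and TNFSF9 (r = 0.98). For MEPCE the most alike gene was WDCP (r = 0.99).

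Of 25 further genes tied to P-TEFb and its complexes, 20 reached the count minimum. In total RNA, 1 was called lower over the mean of AZ-5576 against DMSO, the RNA helicase DDX21 (-0.97), where 2.38% of all genes were called lower. In slopes, 18 of the 20 were lower in AZ-5576, as were 73.3% of all genes, and none was higher. They were led by ELL (-0.44), the ELL2 paralogue, then ZC3H8 (-0.31) of the little elongation complex, EAF1 (-0.29), an ELL partner, and the BET gene BRD2 (-0.29). ELL went from 164 at 0 h to 310, 362 and 371 in DMSO and to 207, 83.1 and 35.1 in AZ-5576, so that 9.44% of DMSO was left at 8 h (7.42 to 11.9%), against 32.0% of ELL2. Under JQ1, 5 of the 20 had lower slopes and 1 a higher one, where 16.2% and 1.79% of all genes did. The higher one was BRD2 (0.14), which stood at 5543, 6850 and 9919 in JQ1 against 6182, 5315 and 4071 in DMSO. DDX21 (-0.14), SYNCRIP (-0.13) and MLLT1 (-0.11) were among the lower.

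For unlabelled RNA, 13 of the 20 were called lower in AZ-5576, where 40.8% of all genes were, led by ELL (-2.46), USPL1 (-2.37), ZC3H8 (-2.32) and EAF1 (-2.24). Their median was -1.42, against -1.85 for the members. For labelled slopes, 1 of the 20 was called higher in AZ-5576, BRD2 (0.11), beside 3.53% of all genes, and none under JQ1.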

How the data were processed

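SLAM-seq 3′ end libraries of K562 cells were read as deposited raw counts per gene: total human reads, reads named nascent (here labelled, taken as carrying T-to-C changes) and fly reads. Per the submitters' processing notes the authors used bedtools, Trim Galore 0.6.5 and bcl2fastq 2.17.1.14. The labelling rule, aligner, counter and annotation are not given in the sources used here. The members and lists were chosen with earlier results of these data known.

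Unlabelled counts are total minus labelled. Library sizes were fly read sums. Genes with a mean of at least 20 counts over the 10 libraries were fitted in edgeR 4.0.16 (R 4.3.3), which shares the spread over genes (in the labelled fit almost wholly, with a median of 52900 total degrees of freedom). One model had time as a factor and a term per inhibitor (4 residual degrees of freedom), the other a line per arm from the shared 0 h library (6). A half-life is -1 over the log2 slope of labelled counts. Adjusted p under 0.05 is a call. Intervals on reads are 95% Clopper-Pearson, and those of half-lives invert the slope's 95% t interval. The code of both models was also run on simulated counts. For the time-factor model these had less scatter than the real total RNA and a constant shift. That run does not measure the model's error rates here. Alternatives were TMM and DESeq2 size factors, DESeq2 1.42.0, limma-trend 3.58.1, other count minimums, 2 arms alone, and leaving out each library. Named pathway genes are those called, at most 4 per comparison by size. Likeness is Pearson's r of log2(counts per 1000000 fly reads) among genes with a mean of at least 100 counts. Promoters are from RefSeq (GRCh38.p14), gene models from GENCODE release 29.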

Additional observations from a re-analysis of the deposited data

How the results depend on the processing

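The number of members called moved as follows, of 8 tested, or of 10 with no count minimum and of 5 labelled at a mean of at least 100. Shares of all genes called stand in brackets. For the mean difference in total RNA between AZ-5576 and DMSO (0 as reported), DESeq2 with fly totals called 6 (35.5%), limma-trend 4 (21.5%), no count minimum 4 (11.9%), the 2 arms alone 3 (14.9%), and leaving out a library 0 to 8. Between JQ1 and DMSO (0), no count minimum gave 1 and the 2 arms alone 2, for total (0.699% and 22.5%) and for unlabelled RNA (0.436% and 29%) alike. Between AZ-5576 and JQ1 (1), TMM and DESeq2 size factors each gave 2 (5.15% and 4.9%), DESeq2 5 (10.3%), no count minimum 3 (4.48%), a mean count of at least 100 gave 0 (0.439%), the 2 arms alone 0 (0.136%), and leaving out a library 0 to 7. For total slopes, AZ-5576 against DMSO (8) gave 4 with TMM (48.2%), 3 with DESeq2 size factors (47.9%) and 9 of 10 with no count minimum (30.6%), and JQ1 against DMSO (2) gave 1 to 2 without a library. For labelled slopes, AZ-5576 against DMSO (2) gave 1 with no count minimum (1.17%) or with a mean of at least 100 (6.39%), which CCNT2 did not reach, and 0 to 2 without a library. JQ1 against DMSO (1) gave 0 to 1, and AZ-5576 against JQ1 (1) gave 2 with TMM (5.38%), with DESeq2 size factors (5.36%) and with DESeq2 (4.89%), and 1 to 3 without a library. For unlabelled RNA, AZ-5576 against DMSO (7) gave 4 with TMM (27.4%), 3 with DESeq2 size factors (27.8%) and 0 to 8 without a library.

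Signs turned for LARP7 and ELL2 in AZ-5576 against DMSO. With TMM and with DESeq2 size factors, LARP7 was at 0.12 and 0.18 in mean total RNA, at 0.029 and 0.041 in total slope and at 0.084 and 0.17 in unlabelled RNA. ELL2 was at 0.019 in total and 0.078 in unlabelled RNA with DESeq2 size factors. Its labelled slope was -0.016 with TMM and -0.0175 with DESeq2 size factors, and ran from -0.0503 to 0.0571 without a library. These scalings remove a shift common to most genes by construction, and the cause of the other changes was not tested. In JQ1 against DMSO, TMM also turned the unlabelled estimates of CCNT1, CCNT2, MEPCE and AFF1 to between 0.098 and 0.31, and in AZ-5576 against JQ1 the total estimate of LARP7 from -0.061 to 0.38, none called. No paired analysis was possible because each condition has 1 library, so no replicate could form a block, and time as a factor matched the arms instead. Depth limits HEXIM2, CDK9 and the labelled counts of CCNT2 at 8 h.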
